A study of Mus musculus with 6 samples.

Results

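The genes described here were 10 genes of the ATF4 arm of the integrated stress response, Atf4, Atf5, Atf3, Ddit3, Trib3, Chac1, Asns, Sesn2, Vldlr and Slc7a5, chosen by name from the 55416 genes of the deposited table. Where a name stood on several rows, the row with the most counts was taken, which concerned Ddit3. All 10 passed the filter for low counts, as did 15269 genes in all. They were followed in cultured primary mouse chondrocytes, the cells of cartilage, transfected with siNC, a scrambled siRNA that served as the control, or with siPkm2, directed at Pkm2, with 3 libraries per group and replicate numbers 1, 2 and 3 in both. Pkm2 is the M2 form of the glycolytic enzyme pyruvate kinase, and the question was which transcripts changed when it was silenced. All cultures were of wild-type origin apart from the siRNA. The labels give neonatal knee joints as the source, while the study's supplementary methods describe chondrocytes of adult mice, and the labels give neither strain, sex, siRNA dose nor time after transfection. The genotype label of siPkm2 replicate 1 reads PKM2 knockdown, whereas replicates 2 and 3 carry PKM3 and PKM4, so their group was taken from the titles. Nothing in the labels says that the libraries of a group came from separate animals. The p-values therefore measure the spread between these libraries or, where replicate numbers were matched, the spread of the siRNA difference between pairs.

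The integrated stress response is a brake on protein synthesis shared by several kinds of stress. Kinases that sense unfolded protein, amino acid shortage, double-stranded RNA or heme shortage phosphorylate the initiation factor eIF2, which lowers translation of most mRNAs but favours that of Atf4, whose leader holds upstream open reading frames. The ATF4 protein then pairs with other bZIP factors and binds composite C/EBP-ATF elements (CARE) in genes for amino acid synthesis, amino acid import and tRNA charging. It also acts on the factors ATF3, ATF5 and DDIT3 (CHOP) and on feedback genes such as Trib3. Chondrocytes secrete large amounts of collagen, and this response is known in growth plate cartilage under load on the endoplasmic reticulum. Since ATF4 is controlled largely in translation, its mRNA is not a measure of its protein, which was not measured in these libraries.

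The promoters of the listed genes were searched for the core of the CARE, because it is the element through which ATF4 acts on its targets. The RefSeq promoter table for GRCm38.p6, which runs from 250 bases before to 50 bases after a transcript's start, held 9 of the 10 genes, and had no entry for Slc7a5. The letters TGATGNAA, on either strand, occurred in the promoters of 5 of them, against 4.51% of the 27025 genes in the table and 3.97% of its 32851 promoters. These 5 elements are shown within 30 bases of the gene's own strand, 5′ to 3′, with the 8 letters of the core, or of its reverse complement, in capitals.
Asns: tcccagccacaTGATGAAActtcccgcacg
Atf3: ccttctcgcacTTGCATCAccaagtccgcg
Chac1: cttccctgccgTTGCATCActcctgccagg
Trib3: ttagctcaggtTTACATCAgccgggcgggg
Vldlr: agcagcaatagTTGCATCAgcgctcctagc
The Asns window lies at chr6:7693214-7693243 on the minus strand, and its core begins at position -23 from the start of the transcript. The Atf3 window lies at chr1:191183425-191183454 on the minus strand, with the core at -110. The Chac1 window lies at chr2:119351038-119351067 on the plus strand, with the core at -193. In Trib3 the window lies at chr2:152344028-152344057 on the minus strand, and the core begins at position 15 after the start of the RefSeq transcript. All these positions count from RefSeq starts, which differ from the GENCODE M21 gene positions given below. On the minus strand the GENCODE Trib3 gene begins at 152344032, so by that span the core lies before the gene. The Asns, Atf3 and Vldlr windows lie within the GENCODE spans of their genes. The Vldlr window lies at chr19:27216809-27216838 on the plus strand, with the core at -200 in 1 of the 2 promoters listed for the gene. Chac1, Atf3 and Vldlr share the same 8 letters, TTGCATCA, whereas Asns and Trib3 each have another form. The full cyclic AMP response element, TGACGTCA, which reads the same on both strands, was in no promoter of the 9 genes, against 2.03% of all genes. A match describes letters only, and a window without them says nothing of ATF4 at that gene. The 5 genes with the core did not move alike, as the values below show.

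Counts of the leader sequences were taken from GENCODE M21, in the transcript with the longest coding region. Upstream ATG triplets numbered 3 in Atf4, 2 in Atf5 and 2 in Ddit3, and 1 each in Atf3, Asns and Sesn2, while Trib3, Chac1, Vldlr and Slc7a5 had none. At least 1 upstream ATG was thus present in 6 of the 10 genes, against 51.8% of the tested genes that had a leader. The supplement names 3 siRNAs against Pkm2 and states which was selected, without tying a number to the sequenced cultures. The site GAGAAAC, complementary to the seed of the selected siRNA, was in the 3′ UTR of 0 of the 10 genes, against 17.9% of 13273 genes with a 3′ UTR of at least 50 bases.

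Total estimated counts lay between 22317065 and 25691096 per library, and the least abundant of the 10 genes, Atf3, had at least 141 counts in each. Pkm, counted over all its isoforms, was at 2335, 2746 and 1674 CPM, a library-scaled count corrected by TMM factors, in replicates 1, 2 and 3 of siNC. In siPkm2 the levels were 336, 541 and 309 CPM. The siPkm2 libraries were all below the siNC libraries, in accord with their titles. The 10 chondrocyte markers were all detected, but their summed level was 11290 and 15830 CPM in replicate 2 of siNC and siPkm2, and between 46930 and 55640 CPM in the other libraries. A list of 10 inflammatory genes summed to 10750 and 11070 CPM in replicate 2 of siNC and siPkm2. In replicates 1 and 3 it summed to 35.6 and 41.4 CPM in siNC, and to the higher 199.2 and 162.6 CPM in siPkm2. Macrophage markers summed to between 8.41 and 62.7 CPM, highest in replicate 2. Of them, Cd68 was at 55.5 and 33.4 CPM in replicate 2 of siNC and siPkm2, and between 1.80 and 11.8 CPM elsewhere. Csf1r, Lyz2 and Mrc1 reached at most 3.63 CPM, and Ptprc, Adgre1 and Fcgr1 were under 1 CPM in every library. In bulk RNA, fewer cells of a type and less RNA per cell cannot be told apart.

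Pkm2 silencing left most of the 10 genes without a change that passed the test. The difference of replicate 2 from replicates 1 and 3 was larger than the siRNA difference for 9 of them. With the groups alone in the model, none of the 10 genes was called at a fold over 2 and an adjusted p under 0.05, and the background was 0% of all genes tested (edgeR's quasi-likelihood test, Benjamini-Hochberg adjustment over 15269 genes). Pkm, the silenced target, was not called in that fit either, at a log2 fold change of -2.51 and an adjusted p of 0.0738. At an unadjusted p under 0.05 there were 2690 genes, 17.6% of those tested, and 1 of the 10 was among them. DESeq2, run on 28059 genes, called 430, none of them in the list. Libraries with the same replicate number deviated together, and in a fit that took the number as a block 5.83% of all genes were called, again with none of the 10. Pkm was called with the block, at a log2 fold change of -2.53 and an adjusted p of 0.00932. On the adjusted p alone, the blocked comparison placed Sesn2 and Vldlr higher in siPkm2 and no listed gene lower, against a background of 12.3% of all genes higher and 10.8% lower. That is 2 of 10, a share near the background. The median log2 fold change of the 10 genes was 0.073 by group alone and 0.22 with the block, beside -0.021 and -0.010 over all genes tested, and it was 0.087 with the block when pair 2 was left out, beside -0.028.

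**Figure D1:**
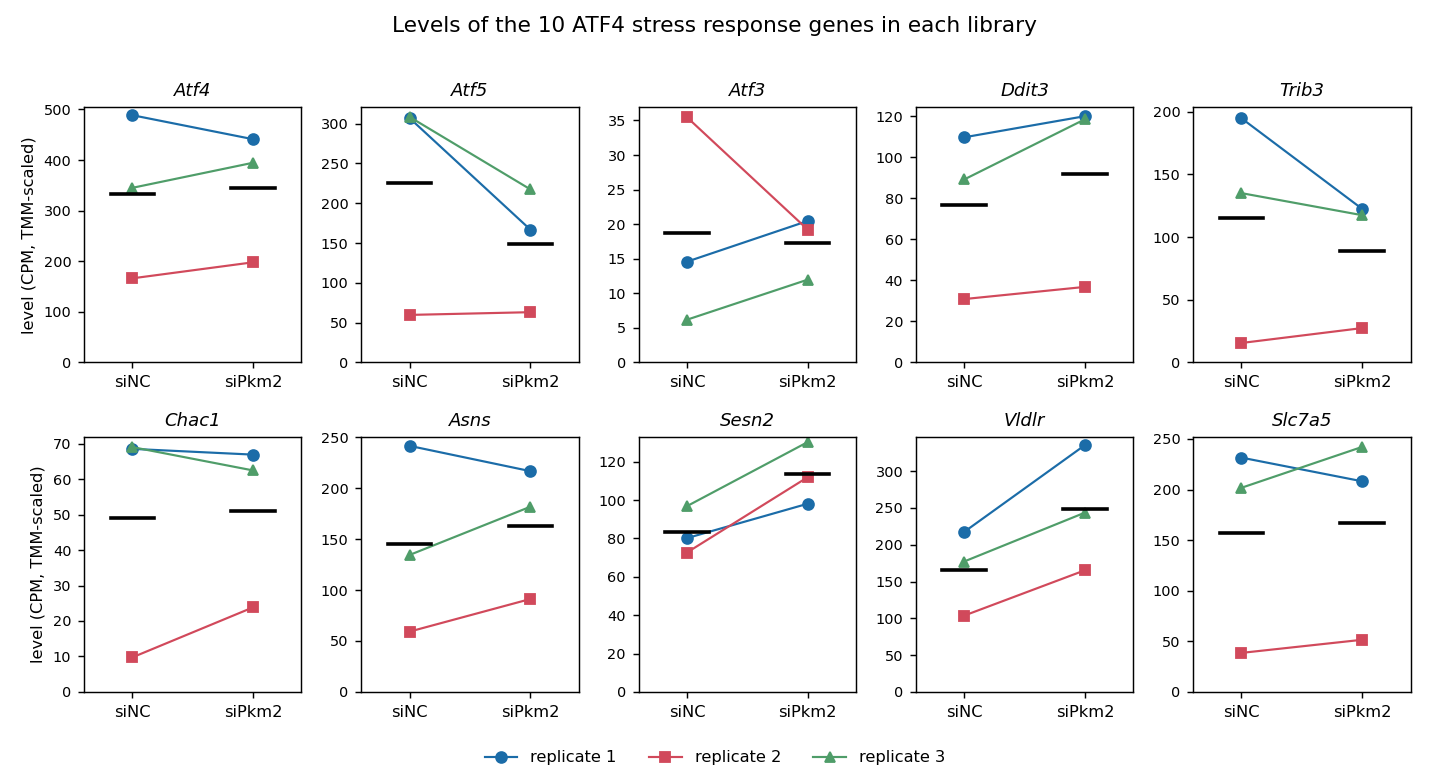
Level of each of the 10 genes in CPM (TMM-scaled, linear axes from 0) in siNC and siPkm2, with a line joining the libraries of the same replicate number and a black bar at the mean of 3 libraries. Replicate 2 is the lowest library of both groups for 8 of the 10 genes, Sesn2 and Vldlr are higher in siPkm2 in all 3 pairs with a blocked adjusted p under 0.05, and Sesn2 is the gene whose groups do not overlap.

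Sesn2 (chr4:132492032-132510501, minus strand, positions of genes from GENCODE M21 on GRCm38) encodes sestrin 2, a leucine-binding inhibitor of mTORC1 that is made under amino acid shortage and oxidative stress. Its level was 80.2, 72.7 and 96.8 CPM in siNC replicates 1, 2 and 3, against 98.1, 111.9 and 130.2 CPM after siPkm2. All siPkm2 libraries stood above all siNC libraries, and Sesn2 was the only one of the 10 genes for which the groups did not overlap, against 12% of all genes with siPkm2 wholly above and 12.3% wholly below. The means were 83.2 ± 12.4 CPM in siNC and 113.4 ± 16.1 CPM in siPkm2 (SD, n = 3 each). The log2 fold change was 0.45 ± 0.17 (SE), a fold of 1.36, with an adjusted p of 0.249 by group alone. With the replicate block it was 0.45 ± 0.095 with an adjusted p of 0.0289, so Sesn2 rose on the adjusted p in the blocked comparison but stayed under 2-fold.

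Vldlr (chr19:27216484-27254231, plus strand), the very low density lipoprotein receptor, is a lipid uptake receptor whose transcription ATF4 is known to raise. It stood at 217.4, 103.7 and 177.2 CPM in siNC and at 335.3, 165.3 and 243.6 CPM in siPkm2, in replicate order. Each siPkm2 library was above the siNC library of its own number, by 1.54-, 1.59- and 1.38-fold, while the groups overlapped because replicate 2 was low in both. The group-only log2 fold change of 0.58 ± 0.36 had an adjusted p of 0.452. With the block the estimate was 0.59 ± 0.088, a fold of 1.5 with an adjusted p of 0.0161, the smallest of the 10 genes. Vldlr thus rose on the adjusted p once replicate numbers were matched, and not otherwise.

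Ddit3 (chr10:127290774-127296288, plus strand) encodes CHOP, the factor that links lasting stress of the endoplasmic reticulum to cell death. It was at 109.7, 30.9 and 89.2 CPM in siNC and at 120.0, 36.8 and 118.5 CPM in siPkm2. Each pair had siPkm2 above siNC, by 1.09-, 1.19- and 1.33-fold, and the groups overlapped widely. The blocked log2 fold change was 0.26 ± 0.089 (95% interval 0.041 to 0.49) with an adjusted p of 0.0845, and the group-only value was 0.26 with an adjusted p of 0.866, so Ddit3 did not pass. A short second row of the same name on the same strand, which shares reads with it, held at most 46.8 counts in a library and was not used. Exons of Ddit3 overlap those of Mars1 on the opposite strand, a gene with 11410 counts over the 6 libraries, and whether counting used the strand is not given in the sources used here, so the Ddit3 values are uncertain to that extent.

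The listed genes higher in siPkm2 in all 3 pairs were Ddit3, Sesn2 and Vldlr. That pattern was found in 30.5% of all genes tested, and its reverse, found in 30.6% of genes, in none of the 10.

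**Figure D2:**
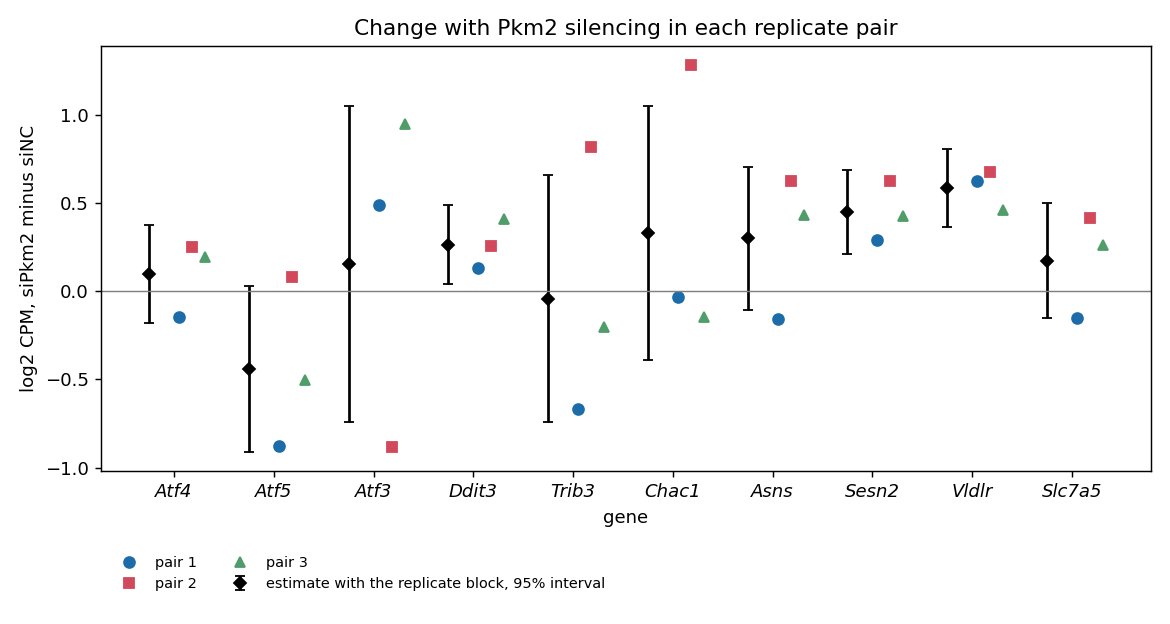
Difference in log2 CPM between siPkm2 and siNC within each replicate pair (coloured points) beside the estimate with the replicate block and its 95% interval (black). The intervals of Sesn2, Vldlr and Ddit3 lie above 0, those of the other 7 genes include 0, and pair 2 goes against pairs 1 and 3 in Atf5, Atf3, Trib3 and Chac1.

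Atf4 (chr15:80255184-80257541, plus strand), the factor after which the response is named, was at 488.7, 166.2 and 345.1 CPM in siNC and at 441.2, 197.9 and 394.7 CPM in siPkm2. It was lower in siPkm2 in pair 1 and higher in pairs 2 and 3, and the groups overlapped almost completely. With the block the log2 fold change was 0.099, with a 95% interval of -0.18 to 0.38 (adjusted p 0.539), and by group alone it was 0.048 with an interval of -1.06 to 1.15 (adjusted p 0.972). Neither fit passed the test for the Atf4 mRNA, and the interval was wider without the matched numbers.

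Atf5 (chr7:44812256-44816658, minus strand), a relative of Atf4 with a similar leader that is known for control of the mitochondrial stress response, was at 306.9, 59.7 and 308.4 CPM in siNC and 166.8, 63.1 and 217.4 CPM in siPkm2. Within pairs 1 and 3 the siPkm2 library stood at 0.544 and 0.705 of its siNC partner, whereas in pair 2 it stood at 1.06. Matched by number, the log2 fold change was -0.44 ± 0.19 with an adjusted p of 0.142, and the group-only value was -0.59 ± 0.69 with an adjusted p of 0.716. Exons of Atf5 overlap those of Nup62 on the opposite strand, a gene with 9553 counts over the 6 libraries, so its values carry the same uncertainty as those of Ddit3.

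Atf3 (chr1:191170296-191218039, minus strand), an early stress factor that also responds to cytokines, was the least abundant, at 14.6, 35.5 and 6.17 CPM in siNC and 20.5, 19.2 and 11.97 CPM in siPkm2. The highest library was siNC replicate 2, and Atf3 was alone among the 10 genes in being highest there. It was 1.4- and 1.93-fold higher with siPkm2 in pairs 1 and 3 and at 0.543 of siNC in pair 2. The blocked log2 fold change of 0.15 had the 95% interval -0.74 to 1.05 and an adjusted p of 0.773, and the group-only value of -0.12 (adjusted p 0.942) had the other sign.

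Trib3 (chr2:152337422-152344032, minus strand), a pseudokinase that is induced by ATF4 and CHOP and restrains both, was at 194.7, 15.5 and 135.0 CPM in siNC and 122.4, 27.4 and 117.4 CPM in siPkm2. Replicate 2 stood far below the others in both groups. Within pairs the fold was 0.629, 1.76 and 0.87, so the pairs disagreed in direction. Over the pairs, the log2 fold change was -0.042 (95% interval -0.74 to 0.66, adjusted p 0.923).

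Chac1 (chr2:119351229-119354381, plus strand), which degrades glutathione and is a target of the ATF4, ATF3 and CHOP cascade, was at 68.5, 9.75 and 69.01 CPM in siNC and 66.9, 23.9 and 62.4 CPM in siPkm2. Replicates 1 and 3 lay within 62.4 and 69.01 CPM in both groups, and the only large difference was in pair 2, where siPkm2 was 2.43-fold above siNC. With the block, Chac1 had a log2 fold change of 0.33 (95% interval -0.39 to 1.05) with an adjusted p of 0.428.

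Asns (chr6:7675169-7693254, minus strand), which makes asparagine from aspartate and glutamine, was at 241.4, 59.2 and 134.4 CPM in siNC and 216.6, 91.2 and 181.7 CPM in siPkm2. It was lower with siPkm2 in pair 1 and higher in pairs 2 and 3. The blocked log2 fold change was 0.30 ± 0.16 with an adjusted p of 0.225, which did not pass.

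Slc7a5 (chr8:121881150-121907694, minus strand), the LAT1 importer of leucine and other large neutral amino acids, was at 231.5, 38.6 and 201.7 CPM in siNC and 208.1, 51.6 and 242.1 CPM in siPkm2. Its pairs had the same signs as those of Asns, with smaller sizes of 0.899-, 1.34- and 1.2-fold. Slc7a5 had a blocked log2 fold change of 0.17 ± 0.13 with an adjusted p of 0.36.

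Of the 10 genes, 9 differed more between replicate 2 and replicates 1 and 3 than between siNC and siPkm2. Replicate 2 was singled out for this contrast after the data were seen. Atf4, Atf5, Ddit3, Trib3, Chac1, Asns, Vldlr and Slc7a5 had their lowest level in replicate 2 of both groups, which is 8 of 10 against 28.5% of all genes tested. The same 8 genes passed an F test of the replicate number at an adjusted p under 0.05, against 26.1% of all genes, in a test added after the data were seen. Sesn2 and Atf3 did not pass it, at adjusted p of 0.112 and 0.0867. The mean of replicates 1 and 3 over that of replicate 2, on the log scale over both groups, was 6.74-fold for Trib3, 4.93-fold for Slc7a5, 4.35-fold for Chac1, 3.94-fold for Atf5, 3.22-fold for Ddit3, 2.57-fold for Asns, 2.28-fold for Atf4 and 1.81-fold for Vldlr. The smallest adjusted p of that test among them was 0.00313, for Ddit3. The median of replicate 2 minus replicates 1 and 3 was -1.52 on the log2 scale over the 10 genes, -0.38 over 76 other genes of the pathway and -0.0096 over all genes tested. Sesn2 was the exception in size, with replicates 1 and 3 at 1.11-fold of replicate 2, and was the 1 gene of the 10 whose siPkm2 difference exceeded its replicate difference. The lower chondrocyte marker sum and the higher inflammatory sum of replicate 2, given above, moved with these values. So did the summed level of 5 osteoblast markers, at 33.7 and 43.2 CPM in replicate 2 of siNC and siPkm2. In replicates 1 and 3 that sum was 422.7 and 246.8 CPM in siNC, and the lower 169.5 and 79.8 CPM in siPkm2. Of these markers, Bglap and Dmp1 were under 1 CPM in all libraries. The summed level of 6 fibroblast markers did not stand apart in replicate 2. It was 6102 and 7234 CPM there in siNC and siPkm2, and between 3229 and 8947 CPM in the other libraries. Col1a1 and Col3a1 made up most of that sum, so it says little of the other fibroblast markers. Of the 6, Thy1 alone was highest in replicate 2 of both groups, at 65.65 CPM in siNC and 54.78 CPM in siPkm2. The part of these marker lists was not tested.

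**Figure D3:**
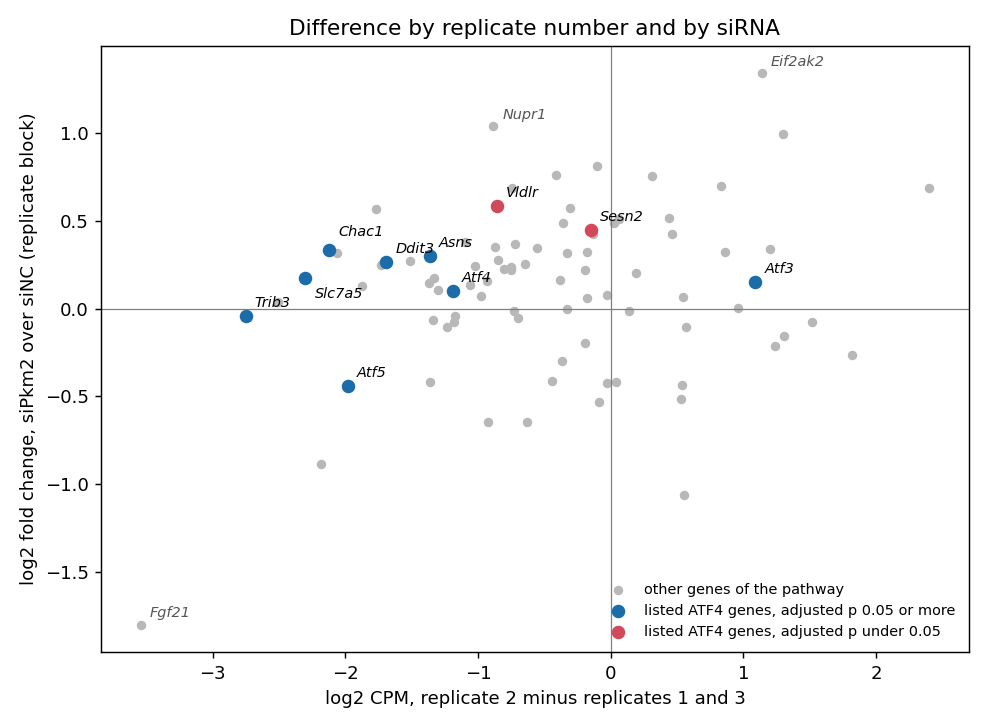
Blocked log2 fold change of siPkm2 over siNC (vertical) against the difference in log2 CPM of replicate 2 from replicates 1 and 3 (horizontal), for the 10 listed genes (coloured) and 76 other genes of the pathway (grey). The listed genes spread from -2.75 (Trib3) to 1.09 (Atf3) along the replicate axis, and from -0.44 (Atf5) to 0.59 (Vldlr) along the siRNA axis.

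Several of the siRNA comparisons changed when replicate 2 was left out. Without that pair, the blocked comparison of the other 4 libraries placed Atf3, Sesn2 and Vldlr higher and Atf5 and Trib3 lower on the adjusted p, against 19.8% of all genes higher and 19.3% lower. The log2 fold changes there were 0.69 for Atf3 (adjusted p 0.0176), 0.35 for Sesn2 (0.018), 0.53 for Vldlr (0.0045), -0.70 for Atf5 (0.0041) and -0.45 for Trib3 (0.029). In pair 2 itself, Atf3, Atf5 and Trib3 had the opposite sign, while Sesn2 and Vldlr had the same sign in every pair. That comparison rests on 2 libraries in each group, and the difference of pair 2 from the other pairs was not tested. Atf4, Ddit3, Chac1, Asns and Slc7a5 did not pass there either. Without pair 1 the adjusted p was 0.105 for Sesn2 and 0.103 for Vldlr, and without pair 3 it was 0.166 and 0.106, so neither passed, at log2 fold changes of 0.53 and 0.46 for Sesn2 and 0.57 and 0.65 for Vldlr. The calls of these genes on the adjusted p therefore held without pair 2 and were lost without pair 1 or pair 3, where no gene of the whole table was called at a fold over 2.

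On the scale of TPM, which divides by transcript length and so allows genes to be compared, Atf4 was the most abundant of the 10 in siNC, at 342 ± 146 TPM (SD, n = 3). Atf5 followed at 232 ± 148 and Ddit3 at 185 ± 88.3 TPM. Asns was at 126 ± 71.4, Trib3 at 98.3 ± 75.0 and Slc7a5 at 73.2 ± 46.7 TPM. Their spread exceeded the gaps between them. Vldlr was at 59.4 ± 23.1, Chac1 at 53.6 ± 36.8, Sesn2 at 39.9 ± 6.44 and Atf3 at 17.6 ± 15.2 TPM. Neighbours in this order overlapped in siNC and in siPkm2, other than Sesn2, which was above Atf3 in every library of both groups. Within single libraries Ddit3 was above Asns and Asns above Trib3 in 6 of 6. In siPkm2 the order of the means differed, with Ddit3 at 222 ± 111 TPM above Atf5 at 147 ± 79.3 TPM, and Vldlr at 85.4 ± 27.7 TPM above Trib3 at 77.8 ± 46.4 TPM and Slc7a5 at 76.2 ± 45.8 TPM.

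Of the wider pathway, 76 genes were found and tested, and none was called by group alone. With the block, 3 were called at a fold over 2, 14 were higher and 9 lower on the adjusted p, and the median log2 fold change was 0.16. Over all genes tested the same fit called 5.83%, with 12.3% higher and 10.8% lower on the adjusted p, and nothing particular to the pathway is read from these counts. Nupr1, a chromatin-associated stress protein, was at 196.0, 96.0 and 141.1 CPM in siNC and 415.7, 180.9 and 304.4 CPM in siPkm2, with every pair higher. Its blocked fold was 2.05 with an adjusted p of 0.0107. Like 8 of the 10 listed genes, Nupr1 was lowest in replicate 2 of both groups. Fgf21, a secreted metabolic hormone induced by ATF4, was at 8.25, 0.485 and 6.17 CPM in siNC and 1.82, 0.117 and 2.38 CPM in siPkm2. It fell to a blocked fold of 0.286 with an adjusted p of 0.0177, at low levels throughout. Nupr1 and Fgf21, both ATF4-linked, thus moved in opposite directions.

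The kinases that start the response were described next. Eif2ak2 (PKR), which senses double-stranded RNA and is itself interferon-inducible, was at 36.3, 131.4 and 34.9 CPM in siNC and 145.4, 167.8 and 110.7 CPM in siPkm2. It rose with the block by 2.53-fold with an adjusted p of 0.0397, and siNC replicate 2 lay within the range of the siPkm2 libraries. A list of 10 interferon-stimulated genes summed to 22.5, 1547 and 39.7 CPM in siNC and to 867, 2704 and 651.5 CPM in siPkm2. Of that list, 10 of 10 were higher in every pair, against 30.5% of all genes tested. The part of this list in the Eif2ak2 value was not tested. Eif2ak1 (HRI) was between 41.3 and 52.0 CPM in siNC and between 53.6 and 59.2 CPM in siPkm2, with a blocked log2 fold change of 0.32 and an adjusted p of 0.0502. Eif2ak3 (PERK), the sensor of the endoplasmic reticulum, and Eif2ak4 (GCN2), the sensor of uncharged tRNA, had blocked log2 fold changes of 0.23 and 0.066 with adjusted p of 0.0825 and 0.712. Among the 12 kinases and subunits of eIF2, eIF2B and its phosphatase, Eif2ak2, Eif2b2 and Eif2s1 were higher on the adjusted p and Ppp1r15b was lower. Over all genes tested, 12.3% were higher and 10.8% lower in that fit.

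The downstream lists are given by their genes past the adjusted p with the block, beside the same 12.3% higher and 10.8% lower over all genes. Of 9 bZIP partners, Cebpb and Fos were higher and Cebpa and Cebpg lower. Fos had the smallest p of them, with a blocked log2 fold change of 0.82 and an adjusted p of 0.0248. Of 13 enzymes of serine, one-carbon, proline and cysteine metabolism, Got1 and Psph were higher and Psat1 and Pycr1 lower. Pycr1, which makes proline, was at 69.4, 17.9 and 72.6 CPM in siNC and 35.4, 8.01 and 49.3 CPM in siPkm2, a blocked fold of 0.542 with an adjusted p of 0.0164. Of 9 amino acid transporters, Slc38a2, which imports small neutral amino acids, was lower at a blocked fold of 0.691 with an adjusted p of 0.0176, and none was higher. Of 12 aminoacyl-tRNA synthetases, Aars, Nars and Wars were higher and none was lower, with Wars at a blocked fold of 1.61 and an adjusted p of 0.0248. Of 21 other stress genes, Map1lc3b, Nupr1, Sqstm1 and Stc2 were higher and Fgf21, Sesn1 and Sesn3 lower. Sesn1 and Sesn3, the relatives of Sesn2, thus lay in the other direction from it.

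By replicate number the wider lists were less even. Over all genes tested, 28.5% were lowest in replicate 2 of both groups and 26.1% passed the F test of the replicate number. All 12 synthetases were lowest in replicate 2 of both groups and passed the F test of the replicate number, with a median difference of -0.90 on the log2 scale. The enzymes followed, with 11 of 13 lowest there and a median of -1.33, and 6 of 9 transporters, with a median of -0.75. The bZIP partners had 2 of 9 lowest there and a median of -0.025, and the other stress genes 8 of 21 and a median of 0.32. Over the 76 genes, 44 were lowest in replicate 2 of both groups and 52 passed the F test of the replicate number.

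The genes most like Atf4 over the 6 libraries, by the root mean square difference of centred log2 CPM, were Slc6a9, a glycine transporter, at 0.070, then Paqr3 at 0.091 and Tmtc4 at 0.097. The nearest listed gene was Asns at 0.18, and the median over all genes tested was 0.67. For Ddit3 they were C1ql3 and Col9a2, a cartilage collagen, both at 0.11, and Herpud1, a gene of endoplasmic reticulum protein degradation, at 0.16. For Chac1 they were Kcns1 at 0.15, Gm16151 at 0.15 and Rab39b at 0.16. The measure was taken over the same 6 libraries, in which the replicate number was the larger difference for Atf4, Ddit3 and Chac1, and it carries no test.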

How the data were processed

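RNA from 6 cultures (siNC and siPkm2, 3 libraries each) was sequenced. The authors deposited estimated counts per gene, not normalized and in part fractional, and TPM values. The submitters' processing notes name edgeR and the build mm9, with no role given, and the aligner, counter and annotation are not given in the sources used here. Columns of the authors' own comparison (fold changes and p-values) were not used. Gene positions and transcripts came from GENCODE M21 (GRCm38), which held 94.0% of the identifiers. The column of gene lengths was not used in a test.

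Estimated counts were rounded and filtered by filterByExpr on the group. Groups were compared in R 4.3.3 with edgeR 4.0.16 (TMM, quasi-likelihood test, Benjamini-Hochberg adjustment over 15269 genes), a call being a fold over 2 and an adjusted p under 0.05. CPM for log2 values used a prior count of 2. The replicate numbers paired the libraries: deviations from group means correlated at 0.66, 0.76 and 0.65 for equal numbers and at most at 0.16 otherwise. The numbers come from the titles, which do not say what a number stands for. Alternatives were the block, RLE and upper-quartile factors, DESeq2 1.42.0, limma 3.58.1 on log2(TPM + 1), a minimum of 10 counts in each library in place of filterByExpr, no filter, no fold threshold, and libraries or pairs left out. The edgeR fits by group alone and with the block were also run on simulated counts with known changes, and that outcome is not given here. Libraries held between 22317065 and 25691096 counts. No libraries of the same group were duplicates, since between 52.6% and 73.3% of genes differed beyond counting noise. Libraries of different groups were not compared in this way.

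The 10 genes and all lists were chosen with earlier results of these data known. Of the wider lists, genes called at a fold over 2 in either fit were named, or else the gene of a list with the smallest p with the block.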

Additional observations from a re-analysis of the deposited data

How the results depend on the processing

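None of the 10 genes was called at a fold over 2 under any alternative that kept that threshold. On the adjusted p alone with the replicate block, 2 were called. The number of all genes called moved from 0 by group alone to 3 with upper-quartile factors, 9 without a filter, 3 with at least 10 counts in every library, 430 with DESeq2 and 1 with limma on TPM. With the replicate block it was 890, and with the block together with RLE factors, upper-quartile factors, DESeq2 or no fold threshold it was 900, 935, 1028 and 3524. For the 76 other genes these blocked counts were 3 with TMM, 3 with RLE, 2 with upper quartile, 4 with DESeq2 and 23 without the fold threshold. The alternatives that join the block to another choice, and the F test of the replicate number, were chosen after seeing the data. So was the contrast of replicate 2 with replicates 1 and 3. Leaving out 1 library gave 0 to 105 genes in all, the most without siNC replicate 2. Leaving out 1 pair with the block gave 0 genes without pair 1, 0 without pair 3 and 1639 without pair 2, so the 890 calls rest on pairs 1 and 3 both being present. For the 76 genes it gave 0, 0 and 8, and with 1 library left out by group alone at most 1.

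Of the 10 genes, Atf5, Sesn2 and Vldlr kept their sign under all alternatives run. Atf4 turned to -0.022 and Chac1 to -0.018 on the log2 scale with upper-quartile factors. Atf3 turned positive with limma (0.072) and with the block (0.15). It was also positive when the block was joined to RLE factors (0.16), upper-quartile factors (0.088) or DESeq2 (0.19). By group alone Atf3 stayed negative with RLE factors (-0.124), upper-quartile factors (-0.18) and DESeq2 (-0.112). With 1 library left out, the log2 fold change ranged from -0.27 to 0.44 for Atf4, -0.53 to 0.73 for Atf3, -0.12 to 0.64 for Ddit3, -0.89 to 0.25 for Trib3, -0.43 to 0.40 for Chac1, -0.20 to 0.76 for Asns and -0.37 to 0.52 for Slc7a5, with a change of sign in each. With the block and 1 pair left out, Atf3 ranged from -0.21 to 0.69, Chac1 from -0.099 to 0.60 and Trib3 from -0.45 to 0.29, with Trib3 at 0.057 without pair 3. Without pair 1 or pair 3, Sesn2 and Vldlr no longer passed the adjusted p with the block. The replicate block changed the call of Sesn2 and Vldlr on the adjusted p and of no other listed gene. The cause of these changes was not tested.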
